A study of Rattus norvegicus with 32 samples.

Results

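The unfolded protein response was described through 10 genes, Hspa5, Calr, Pdia4, Sdf2l1, Herpud1, Xbp1, Atf4, Ddit3, Trib3 and Chac1, taken by gene name from the 28914 genes that were counted in every library. The libraries came from the nucleus accumbens (NAc), the dentate gyrus (DG), the cornu ammonis (CA) and the subventricular zone (SVZ) of adult male Sprague-Dawley rats. METH rats received 4 intraperitoneal injections of methamphetamine (METH), 10 mg/kg each, at intervals of 2 h, and saline (Sal) rats received 4 injections of saline, 1 mL/kg each, at the same intervals. Tissue was taken on the following day. Each of the 4 regions gave 4 METH and 4 Sal libraries, 32 in all. A library is written as region, treatment and replicate, for example DG Sal 3.

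The endoplasmic reticulum (ER) folds secreted and membrane proteins, and unfolded proteins that gather there set off the unfolded protein response through the sensors IRE1, PERK and ATF6. IRE1 splices the mRNA of Xbp1 into a form that encodes an active transcription factor, PERK slows translation while favouring that of Atf4, and ATF6 is cut to release a factor that turns on chaperone genes. ATF4 in turn induces Ddit3 (CHOP), Trib3 and Chac1, so that chaperones, degradation genes and the ATF4 branch can be followed by their mRNAs, and in neurons and glia prolonged activity of the response is linked to cell death. Counts per gene do not separate spliced from unspliced Xbp1, and translation of Atf4 is not seen in mRNA.

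The sequences through which these genes are known to be controlled are shown first, for the 6 members whose promoters held a match. In RefSeq promoter windows of the GRCr8 build, 250 bases before to 50 bases after each start, all 10 members had an entry. Both strands were searched for the ER stress response element (ERSE, CCAAT and CCACG with 9 bases of any kind between them, known to be bound by ATF6 with NF-Y), for ERSE-II (ATTGG and CCACG with 1 base of any kind between them), for the core of the UPR element (TGACGTGG, a site of XBP1) and for the C/EBP-ATF response element (CARE, TGATGNAA, a site of ATF4). The capitals below mark the matches, written 5′ to 3′ on the strand of the gene, so that a match on the other strand appears as its reverse complement.
Hspa5, chr3:38452943-38453015, plus strand, ERSE: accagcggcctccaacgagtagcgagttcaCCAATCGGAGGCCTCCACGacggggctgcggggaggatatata
Xbp1, chr14:84604528-84604606, plus strand, ERSE: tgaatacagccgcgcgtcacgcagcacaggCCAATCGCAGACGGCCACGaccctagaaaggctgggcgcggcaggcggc
Calr, chr19:40213117-40213183, plus strand, ERSE as reverse complement: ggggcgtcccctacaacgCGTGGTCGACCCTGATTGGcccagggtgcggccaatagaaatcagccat
Herpud1, chr19:10614791-10614921, minus strand, CARE as reverse complement and then ERSE-II: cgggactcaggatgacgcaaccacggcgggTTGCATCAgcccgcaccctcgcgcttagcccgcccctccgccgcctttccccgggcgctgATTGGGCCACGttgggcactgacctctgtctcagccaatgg
Chac1, chr3:126795934-126796001, plus strand, CARE as reverse complement: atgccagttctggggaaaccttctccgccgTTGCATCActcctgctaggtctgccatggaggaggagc
Trib3, chr3:161275534-161275584, minus strand, CARE as reverse complement: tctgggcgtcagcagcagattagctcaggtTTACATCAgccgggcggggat

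The ERSE letters stood in 3 of the 10 members, Hspa5, Xbp1 and Calr, and in 0.0657% of all 33469 promoters of the same length. ERSE-II stood in Herpud1 alone among the members and in 0.0508% of all promoters, and the CARE letters in 3 members, Herpud1, Trib3 and Chac1, and in 3.98% of all promoters. Herpud1 thus held both kinds of element, and Ddit3, Atf4, Pdia4 and Sdf2l1 held none of the 4. The core of the UPR element stood in 0 members and in 0.595% of all promoters. Counted from the start, the ERSE of Hspa5 stood at -43 to -25, that of Xbp1 at -65 to -47 and that of Calr at -232 to -214. The 4 motifs did not overlap each other in any member. These are matches of letters and not sites of measured binding.

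Libraries were not always alike within their labels, which bears on each result that follows. Per the file headers, DG Sal 1 and DG Sal 2 carry the library numbers 20 and 21, which belong to METH libraries in the NAc and CA, and DG METH 1 and DG METH 2 carry 14 and 15, which belong to Sal libraries there. The groups were taken from the labels. From DG replicates 3 and 4 alone, only Chac1, Ddit3 and the counts at an unadjusted p under 0.05 are given. The remaining METH estimates in the DG, those of genes beyond the members included, use these libraries. In the SVZ the 4 METH libraries carry only 2 numbers, 1669 and 1670, so that their independence is uncertain. Total counts ran from 11094002 to 21869773, with a median of 14533166.5, and 1 read was worth 0.0459 to 0.0940 CPM (read counts scaled to the upper-quartile library size).

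Markers of the labelled tissues were checked by their summed CPM. The 8 striatal neuron markers summed to 282 in NAc METH 3, against 1579 to 7593 in NAc Sal and 3051 to 3542 in the other NAc METH libraries, and to 1820 in DG Sal 3. The 6 dentate granule markers ranged from 191 to 633 in the DG and from 148 to 323 in the NAc, so they did not set the DG apart, and 6 markers of CA pyramidal neurons summed to 329 to 609 in the CA and 109 to 605 in the DG. The 9 choroid plexus markers reached 8548 in SVZ METH 3, 6461 in DG METH 3, 2282 in DG Sal 4 and 2263 in CA Sal 2. Cldn5, a marker of endothelial cells, was at 0 reads in all 8 groups. The 4 counted endothelial markers, Cldn5 among them, nevertheless summed to 48.7 to 136 CPM over all libraries. Fibcd1, which marks CA pyramidal neurons, was at 0 reads in all groups outside the CA. The regions are bulk tissue, punched or scooped out by hand, in which fewer cells of a type cannot be told apart from less RNA per cell.

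Of the 10 members, 9 passed the filter on low counts in every comparison and Trib3 did not. Levels were steady between regions and spanned orders of magnitude between genes. Per kilobase of gene length, mean levels in the 4 Sal groups were highest for Calr, at 159 to 196 CPM per kb, followed by Hspa5 at 105 to 112. Atf4 lay at 41.9 to 57.5, Xbp1 at 36.1 to 47.1, Herpud1 at 20.1 to 29.0 and Pdia4 at 16.4 to 21.8 CPM per kb. Ddit3 lay at 10.7 to 15.2, Sdf2l1 at 5.83 to 7.38, Chac1 at 4.94 to 6.18 and Trib3 at 0.0336 to 0.211 CPM per kb. The chaperones Calr and Hspa5 were therefore the most abundant members, and the ATF4 targets Chac1 and Trib3 the least.

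**Figure D1:**
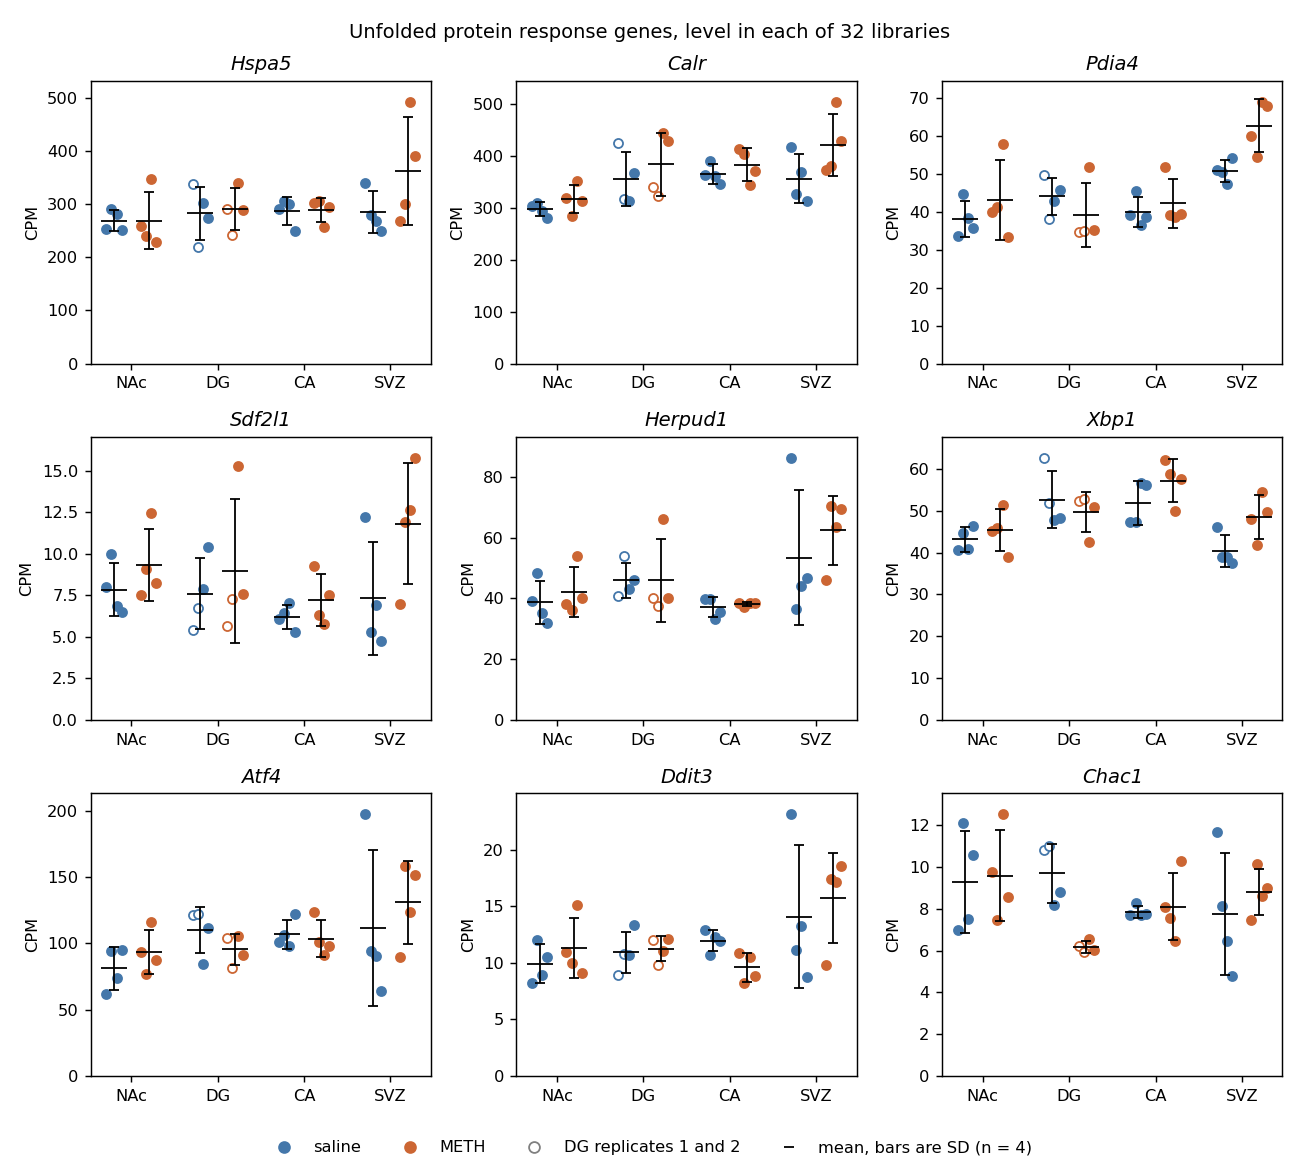
Level (CPM, vertical axis from 0) of the 9 tested members in each library, by region, with Sal in blue and METH in orange. Horizontal marks are means and bars are SD over 4 libraries, and open points are DG replicates 1 and 2, whose library numbers go against their labels. The points of METH and Sal overlap in every panel and region except for Pdia4 in the SVZ and Chac1 in the DG.

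METH was compared with Sal in each region over all genes by edgeR's quasi-likelihood test, and a gene was called at a false discovery rate (FDR) under 0.01 with a fold change above 1.5. No member was called in any region (0 of 9 in each), and 0% of all genes were called in the NAc, DG, CA or SVZ. At an unadjusted p under 0.05 stood 0 members in the NAc (3.39% of 14771 genes), 1 in the DG (12.8% of 14800), 1 in the CA (7.16% of 14612) and 2 in the SVZ (2.58% of 15579). By DESeq2 0 members were called as well, while over all genes it called 3 in the NAc, 183 in the DG, 10 in the CA and 2 in the SVZ. Groups did not overlap for 2 of the 36 pairs of member and region, Chac1 in the DG and Pdia4 in the SVZ, against 7.39% of all genes in the DG, 1.6% in the SVZ, 2.26% in the NAc and 4.43% in the CA. Estimates above 0 were found for all 9 members in the NAc (57.8% of all genes) and in the SVZ (52.9%), for 5 in the DG (48.0%) and for 7 in the CA (51.1%). Their medians in the NAc, DG, CA and SVZ were 0.14, 0.00, 0.04 and 0.25, beside 0.03, -0.01, 0.01 and 0.02 over all genes.

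**Figure D2:**
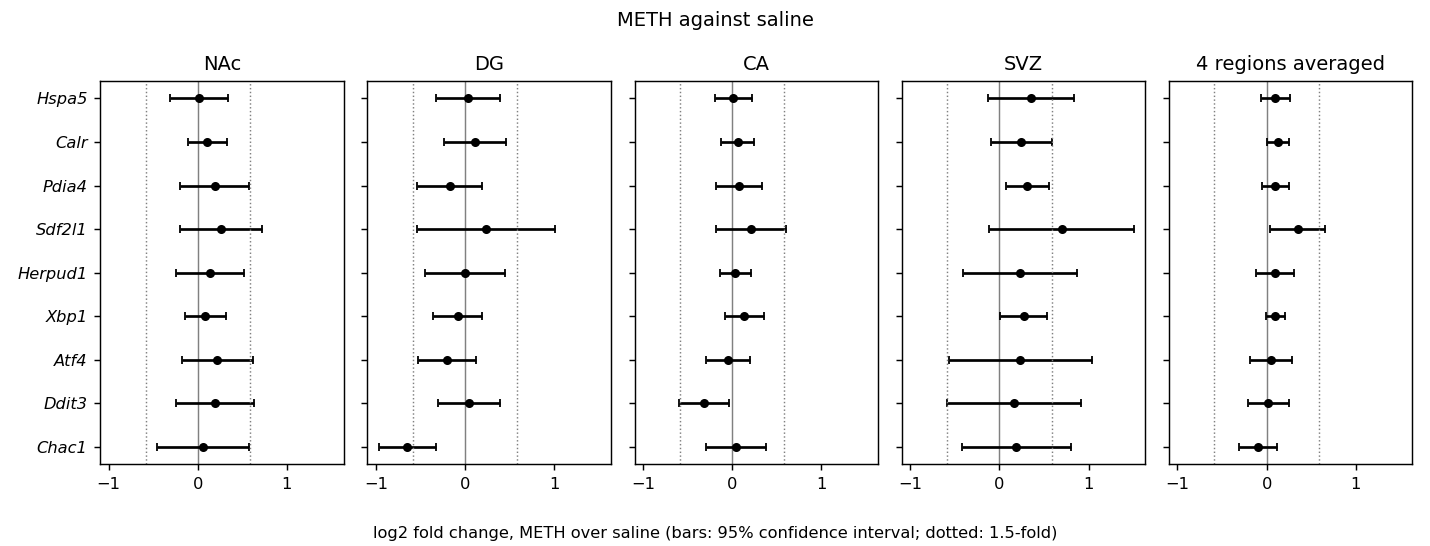
Log2 fold change of METH over Sal (horizontal axis) for the 9 tested members in each region and averaged over the 4 regions, with 95% confidence intervals. Dotted lines mark a 1.5-fold change. Intervals leave out 0 for Chac1 in the DG, Ddit3 in the CA, Pdia4 and Xbp1 in the SVZ, and Calr and Sdf2l1 in the average, none of which was called.

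Hspa5 encodes BiP, the main chaperone of the ER and the standard readout of the response (rn6 chromosome 3, 13838304 to 13842762, plus strand). Its level was 252, 291, 281 and 251 CPM in NAc Sal and 259, 240, 346 and 228 CPM in NAc METH. The METH libraries lay on both sides of the Sal libraries, and NAc METH 3 was the highest of all 8. The log2 fold change in the NAc was 0.01 (SE 0.14, FDR 0.999), with a 95% interval that reached from 0.804-fold to 1.26-fold.

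In the SVZ, Hspa5 stood at 340, 280, 268 and 250 CPM in Sal and at 268, 300, 492 and 390 CPM in METH. SVZ METH 3 and 4 were above every Sal library, and SVZ METH 1 was within the Sal range. The mean was 285 ± 39.2 CPM in Sal and 362 ± 101 CPM in METH (SD, n = 4), a log2 fold change of 0.35 (SE 0.21, FDR 0.979) with an interval from 0.918-fold to 1.78-fold. SVZ METH 3, the highest, was also the library with the highest choroid plexus sum, and without it the log2 fold change was 0.17. The part of choroid plexus RNA in this value was not tested. In the DG and CA, Hspa5 ranged from 219 to 337 and from 249 to 306 CPM in Sal and from 242 to 339 and from 256 to 305 CPM in METH, with intervals of 0.799-fold to 1.32-fold and 0.872-fold to 1.16-fold.

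Calr encodes calreticulin, a calcium-binding lectin chaperone of glycoproteins (rn6 chromosome 19, 25956771 to 25961666, minus strand). Its SD was 4.49% to 8.68% of the mean in the groups of the NAc and CA, and 13.35% to 15.9% in those of the DG and SVZ. Its estimates lay between 0.06 in the CA and 0.25 in the SVZ on the log2 scale, with FDR of 0.847 or more in each region. The upper ends of the 95% intervals were 1.25-fold in the NAc, 1.38-fold in the DG, 1.19-fold in the CA and 1.503-fold in the SVZ. A rise of Calr beyond these sizes therefore lay outside the intervals of the measurement, while smaller ones did not. Without SVZ METH 3, the library rich in choroid plexus markers and the highest of 8 for Calr, the SVZ estimate was 0.14, and the part of that tissue was not tested.

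Pdia4 encodes a protein disulfide isomerase that forms and rearranges disulfide bonds in the ER (rn6 chromosome 4, 77470636 to 77489535, minus strand), and its interval overlaps that of another annotated gene on the same strand, AABR07060522.1. In the SVZ it was at 50.9, 50.4, 47.4 and 54.2 CPM in Sal and at 59.9, 54.3, 68.9 and 67.7 CPM in METH. All METH libraries were above all Sal libraries, though the lowest METH value, 54.30, and the highest Sal value, 54.20, nearly met. The log2 fold change was 0.31 (SE 0.10, FDR 0.979), a 1.24-fold difference with an interval from 1.05-fold to 1.47-fold. With the METH libraries of the same number summed, it was 0.29 (SE 0.13, FDR 1). Estimates of Pdia4 elsewhere were 0.19 (NAc), -0.17 (DG) and 0.08 (CA), all with intervals that included 0.

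Single libraries set the Pdia4 values outside the SVZ. NAc METH 3 was at 57.8 CPM against 33.3 to 41.4 CPM in the other NAc METH libraries, DG METH 3 at 51.7 against 34.7 to 35.2 CPM, and CA METH 1 at 51.9 against 38.5 to 39.3 CPM. Without NAc METH 3 the estimate in the NAc was 0.01, without DG METH 3 that in the DG was -0.34, and without CA METH 1 that in the CA was -0.04.

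Sdf2l1 encodes a partner of BiP that keeps misfolded proteins from aggregating, and it is among the genes that ER stress induces most readily (rn6 chromosome 11, 88122271 to 88124513, plus strand). It had the largest positive estimate of the members in each of the 4 regions, with log2 fold changes of 0.26 (NAc), 0.24 (DG), 0.21 (CA) and 0.70 (SVZ), and none of these was called. SVZ Sal was at 12.2, 5.32, 6.93 and 4.78 CPM and SVZ METH at 6.97, 11.9, 12.6 and 15.8 CPM. SVZ Sal 1 stood among the high METH libraries and SVZ METH 1 among the low Sal libraries. The fold change of 1.62 had an SE of 0.35 on the log2 scale and an FDR of 0.979, with an interval from 0.924-fold to 2.85-fold.

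Levels of Sdf2l1 were low, with 64 to 336 reads per library, and a single library again weighed on the DG. DG METH 3 was at 15.3 CPM against 5.65 to 7.60 CPM in the other DG METH libraries and 5.40 to 10.4 CPM in DG Sal. Without DG METH 3 the estimate in the DG was -0.15. This library also had a choroid plexus sum of 6461 CPM, and the part of that tissue in the value was not tested.

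Herpud1 encodes a membrane protein of ER-associated degradation, which returns misfolded proteins to the cytosol for destruction (rn6 chromosome 19, 11046909 to 11057254, minus strand). In the CA it was nearly the same in all libraries, 33.3 to 39.9 CPM in Sal and 37.1 to 38.5 CPM in METH, with an interval of 0.907-fold to 1.16-fold. In the SVZ, by contrast, Sal was at 86.1, 36.5, 44.0 and 46.8 CPM and METH at 45.9, 70.5, 63.6 and 69.3 CPM. The highest of these 8 values was a Sal library, and the log2 fold change was 0.23 (SE 0.28, FDR 0.979). For the NAc the estimate was 0.14 (SE 0.17). For the DG it was 0.00 (SE 0.20), where DG METH 3 was at 66.2 CPM and the other METH libraries at 37.4 to 40.1 CPM.

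Xbp1 encodes the transcription factor of the IRE1 branch (rn6 chromosome 14, 85753760 to 85758145, plus strand). In the SVZ it was at 46.0, 38.9, 39.0 and 37.4 CPM in Sal and at 48.1, 41.8, 54.5 and 49.7 CPM in METH. Of the METH libraries, 3 were above all Sal libraries and SVZ METH 2 was below SVZ Sal 1. The log2 fold change was 0.27 (SE 0.11, FDR 0.979), with an interval from 1.01-fold to 1.45-fold. This interval treats the SVZ METH libraries as independent, although they share header numbers in pairs. NAc and CA estimates were 0.09 and 0.14, each with an SE of 0.10, and the DG estimate was -0.08 (SE 0.12).

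Atf4 encodes the transcription factor of the PERK branch and of amino acid shortage (rn6 chromosome 7, 121480723 to 121482772, plus strand). It varied more within the SVZ than between treatments. SVZ Sal was at 197, 94.4, 90.8 and 64.0 CPM and SVZ METH at 89.8, 158, 124 and 151 CPM, so that the highest and the lowest library were both Sal. The log2 fold change was 0.24 (SE 0.35, FDR 0.979), with an interval from 0.677-fold to 2.05-fold. For the NAc it was 0.22 (SE 0.18). DG and CA estimates were -0.20 and -0.05 (SE 0.14 and 0.11), and every FDR was 0.615 or more.

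Ddit3 encodes CHOP, the factor through which prolonged ER stress leads to cell death (rn6 chromosome 7, 70580198 to 70585084, plus strand). Its interval overlaps Mars on the opposite strand, and counting did not use the strand, so its counts are uncertain. In the CA it was at 12.9, 10.7, 12.3 and 11.9 CPM in Sal and at 10.9, 8.20, 10.5 and 8.87 CPM in METH. Of the METH libraries, 3 were below every Sal library and CA METH 1 was above CA Sal 2. The log2 fold change was -0.32 (SE 0.12, FDR 0.686), a 1.25-fold lower level with an interval of the METH to Sal ratio from 0.660 to 0.975. With the folder name in the file headers as a factor it was -0.34 (SE 0.17, FDR 0.891).

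Ddit3 estimates elsewhere were 0.20 and 0.04 (SE 0.19 and 0.15) for the NAc and DG, and 0.17 (SE 0.33) for the SVZ. SVZ Sal was at 23.1, 11.1, 13.2 and 8.75 CPM and SVZ METH at 9.79, 17.4, 17.1 and 18.5 CPM. As for Atf4, the highest and the lowest library were SVZ Sal 1 and SVZ Sal 4. A rise of CHOP mRNA on the day after METH was not detected in any of the 4 regions. Intervals reached up to 1.55-fold in the NAc, 1.31-fold in the DG and 1.89-fold in the SVZ.

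Chac1 encodes an enzyme that breaks down glutathione and is a target of ATF4 and CHOP (rn6 chromosome 3, 111160205 to 111163425, plus strand). In the DG it was at 10.8, 11.01, 8.19 and 8.79 CPM in Sal and at 6.21, 5.92, 6.57 and 6.03 CPM in METH, which came from 82 to 140 reads per library. All METH libraries lay below all Sal libraries, with little spread among them. The log2 fold change was -0.65 (SE 0.14, FDR 0.172), a 1.57-fold lower level with an interval of the METH to Sal ratio from 0.511 to 0.799. By DESeq2 the FDR was 0.0133, which also misses the threshold, and 12.8% of all genes in the DG had an unadjusted p under 0.05.

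The Chac1 difference rested in part on the DG libraries whose numbers go against their labels. DG Sal 1 and 2 were the highest Sal libraries, and from replicates 3 and 4 alone the log2 fold change was -0.43 (SE 0.23, FDR 0.755), with 0 of 9 members and 6.72% of all genes at an unadjusted p under 0.05. With the folder name in the file headers as a factor, which compares DG Sal 3 with DG METH 1 and 2, it was -0.44 (SE 0.24, FDR 0.572). NAc and CA estimates of Chac1 were 0.06 and 0.04 (SE 0.23 and 0.15), and the SVZ estimate was 0.19 (SE 0.27).

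Trib3 encodes a pseudokinase that is induced by CHOP and feeds back on it (rn6 chromosome 3, 147813473 to 147819571, minus strand). It had 79 reads over all 32 libraries, between 0 and 14 in each, and 25 libraries had 3 reads or fewer. DG Sal 4 held the 14 reads, a level of 1.15 CPM. No difference was detectable at this depth, and no fold change is given.

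Averaged over the 4 regions in a fit of all 32 libraries, 0 of 9 members were called, as were 0% of all genes by edgeR. This average uses the same libraries as the comparisons by region. NAc, DG and CA libraries carry the same set of 8 header numbers. The labels do not say whether a number is 1 rat, and the fits over regions treat libraries as independent. Deviations of same-numbered NAc Sal and CA Sal libraries had correlations of 0.119 to 0.243. For DG Sal 3 and 4, whose numbers also match, they were 0.247 and -0.0138 with NAc Sal, and 0.0671 and 0.0185 with CA Sal. With the replicate number as a block, 0 members and 0 of all genes were called in the average, the difference between regions or the Sal regions. That block joins METH and Sal libraries of unlike header numbers, and DG Sal 1 (20) with NAc Sal 1 (14). It therefore does not follow the header numbers. In the average without a block, 2 of 9 members, Calr and Sdf2l1, stood at an unadjusted p under 0.05, against 7.83% of 16122 genes. The averaged log2 fold change was 0.35 for Sdf2l1 (SE 0.15, FDR 0.580), with an interval from 1.03-fold to 1.58-fold, and 0.13 for Calr (SE 0.06, FDR 0.622), with an interval from 1.00-fold to 1.19-fold. Without NAc METH 3, 0 of 9 members stood at this p, beside 6.38% of all genes. Averaged estimates were above 0 for 8 of 9 members and for 52.3% of all genes.

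For the other 7 tested members the averaged estimates lay between -0.09 for Chac1 and 0.10 for Hspa5 on the log2 scale. The intervals of Hspa5, Pdia4, Xbp1 and Ddit3 ended at 1.20-fold, 1.19-fold, 1.15-fold and 1.19-fold, and those of Herpud1 and Atf4 at 1.24-fold and 1.22-fold. The median over the members was 0.10, beside 0.01 over all genes. A 2-fold difference of any tested member, averaged over regions, thus lay outside its interval.

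Whether the METH effect differed between regions was tested with 3 contrasts in the same fit. It was called for 0 of 9 members and 0% of all genes at an FDR under 0.01, and 1 member, Chac1, had an unadjusted p under 0.05, against 7.74% of all genes. The FDR of Chac1 was 0.617, and 0.993 without DG replicates 1 and 2. With 1 library left out, the F statistic of Chac1 ranged from 2.36 (without DG Sal 2) to 5.71 (without SVZ Sal 1), and its lowest FDR was 0.204. The DG and SVZ were not compared directly, so whether the opposite signs of Chac1 there differ was not tested.

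In the SVZ no member was called whichever library was left out. Estimates and the count of members at an unadjusted p under 0.05 moved with SVZ Sal 1. This library was the highest of the 4 Sal libraries in 8 of the 9 members and the highest of all 8 SVZ libraries in Herpud1, Atf4, Ddit3 and Chac1. SVZ Sal 4 was the lowest of all 8 in 7 members. Without SVZ Sal 1 the estimates in the SVZ were 1.06 for Sdf2l1, 0.66 for Atf4, 0.56 for Herpud1, 0.51 for Ddit3 and 0.45 for Chac1 on the log2 scale. Members at an unadjusted p under 0.05 then numbered 5 rather than 2, and the lowest FDR of a member was 0.270. The share of all genes at that p moved as well, from 2.58% to 16.4%. Without SVZ Sal 3 instead, 0 members were at that p, and the share of all genes was not computed for that fit. Averaged over regions, 4 members were at that p without SVZ Sal 1, beside 14.2% of all genes.

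The counts at an unadjusted p under 0.05 also moved with 2 RUVr factors, a correction for unwanted variation that the study used and that is computed from the residuals of the same libraries. Members at this p then numbered 7 of 9 in the SVZ (20.1% of all genes) and 2 of 9 in the NAc (13.7%). For the difference between regions they numbered 4 of 9 (18.2%), and among Sal regions 6 of 9 (41.6%). In the SVZ the log2 fold change of Sdf2l1 was 0.74 (SE 0.12) with these factors, close to that without them, and its FDR was 0.0702 rather than 0.979. No member was called with them.

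The SVZ libraries with high Atf4 and Herpud1 were also those rich in myelin transcripts. The 7 oligodendrocyte markers summed to 19480 CPM in SVZ Sal 1, 26830 in SVZ METH 2 and 28550 in SVZ METH 4, against 4068 to 9960 CPM in the other SVZ libraries. Atf4 was at 197, 158 and 151 CPM in those 3 libraries and at 64.0 to 124 CPM in the others, and Herpud1 at 86.1, 70.5 and 69.3 CPM and at 36.5 to 63.6 CPM. The striatal markers were low in the same 3 libraries, at 283, 189 and 883 CPM, against 1516 to 5701 CPM in the others. Those 3 libraries also carry the word EXTRA in their file headers, as does SVZ Sal 2 and no other library. The part of oligodendrocyte RNA in these levels was not tested.

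NAc METH 3 was the highest of the 8 NAc libraries in all 9 members. Without it the estimates in the NAc were between -0.14, for Hspa5, and 0.09, for Atf4,, and those of Hspa5, Herpud1 and Chac1 were below 0, with 0 of 9 members and 4.83% of all genes at an unadjusted p under 0.05. It also had the highest astrocyte sum of all libraries, 4816 CPM, and the lowest striatal sum of the NAc, and stands apart from its region. CA METH 1 and DG METH 3 were each the highest of their 8 libraries in 5 members.

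**Figure D3:**
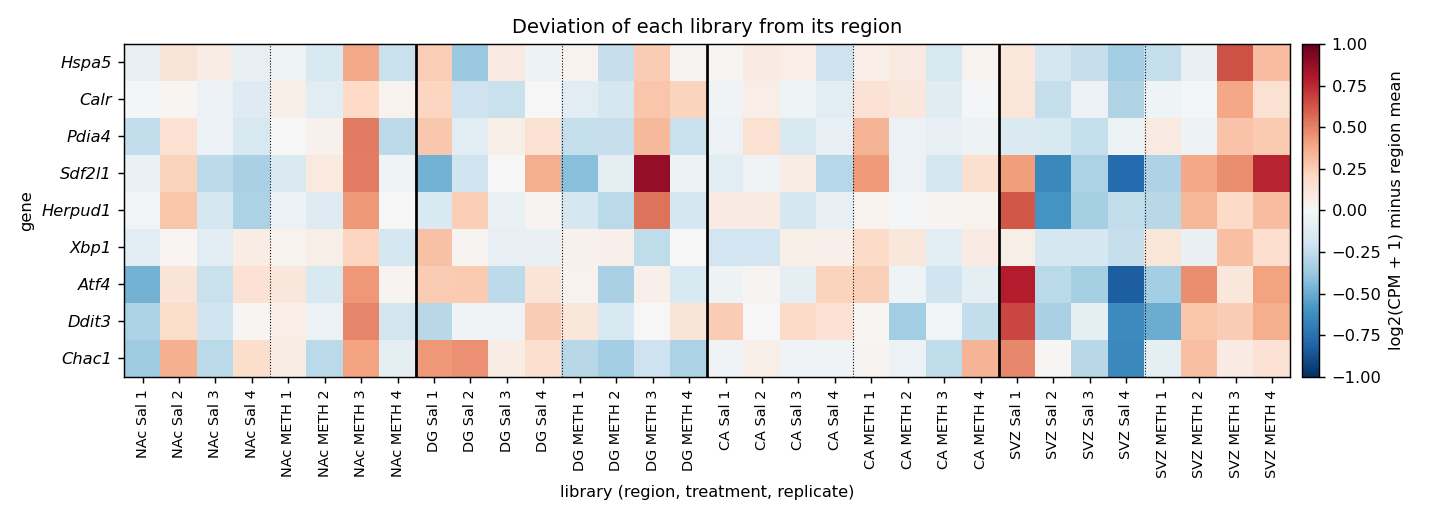
Deviation of log2(CPM + 1) of each of the 9 tested members (rows) from the mean of its region, in each of the 32 libraries (columns), in red above and in blue below the mean. Solid lines separate regions and dotted lines Sal from METH. NAc METH 3 is red in all 9 rows, SVZ Sal 1 is darkest in Atf4, Ddit3 and Herpud1, and SVZ Sal 4 is blue in Atf4, Ddit3 and Chac1.

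Astrocyte markers are given beside these results. In each region 0 of the 6 were called. At an unadjusted p under 0.05 stood 2 in the NAc (3.39% of all genes) and 2 in the DG (12.8%). In the CA 1 did (7.16%) and in the SVZ 1 (2.58%), and all of these had METH above Sal. Averaged over regions, 4 of the 6 were at that p, with METH above Sal, beside 7.83% of all genes, and 0 were called. The 6 markers summed to 2501 to 2865 CPM in NAc Sal and 2886 to 4816 CPM in NAc METH, and to 2306 to 2881 CPM in DG Sal and 3233 to 3454 CPM in DG METH. They summed to 2537 to 3342 and 3010 to 3694 CPM in the CA and to 2470 to 2982 and 2911 to 3476 CPM in the SVZ. The summed groups did not overlap in the DG, nor in the NAc, where 2865 CPM in Sal and 2886 CPM in METH nearly met. Of all genes taken singly, 7.39% in the DG and 2.26% in the NAc did not overlap. The sums overlapped in the CA and the SVZ, and no astrocyte marker was at 0 reads in a whole group. The part of astrocyte RNA in the levels of the members was not tested. The 6 microglial markers summed to 129 to 238 CPM over all libraries, with overlapping groups in every region.

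Across the 32 libraries, after the mean of each of the 8 groups was removed from log2(CPM + 1), most members varied together, within and across branches. Pearson's r was 0.84 between Atf4 and its target Chac1, 0.81 between Atf4 and Ddit3, 0.80 between Sdf2l1 and Herpud1 and 0.78 between Hspa5 and Calr. Pairs across branches reached 0.70 (Sdf2l1 and Ddit3) and 0.67 (Herpud1 and Ddit3). Pairs of the chaperones Hspa5, Calr, Pdia4 and Sdf2l1 ranged from 0.52 (Pdia4 and Sdf2l1) to 0.78 (Hspa5 and Calr). Over the 36 pairs of members it ranged from -0.01, for Herpud1 and Xbp1, to 0.84, with a median of 0.47. All points share their libraries, whose composition and depth differ, so these are descriptions. Of the members that share the ERSE letters printed above, Hspa5 and Calr had an r of 0.78, above the median of all pairs. Hspa5 and Xbp1 had an r of 0.41 and Calr and Xbp1 of 0.35, below that median. Herpud1 and Chac1, which share the CARE letters, had an r of 0.55.

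Of 11562 genes with a mean level of at least 5 CPM, those most like Hspa5 in the same measure were Pdia3 (0.93) and Hsp90b1 (0.88), both ER chaperones, followed by Cct2 (0.84) and Cct4 (0.83), subunits of a cytosolic chaperonin, and Tmed3 (0.82). Those most like the mean of the 9 members were Ctsb (0.92), Rtca (0.89), Lmna (0.89), Ctsd (0.89) and Fuca2 (0.89). Ctsb, Ctsd and Fuca2 encode lysosomal enzymes. Pdia3 and Hsp90b1 were on the list of other ER chaperones.

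In Sal libraries the 4 regions were compared to order the levels. By an F-test over regions 0 of 9 members were called at an FDR under 0.01, as were 0% of all genes by edgeR, and 2 members, Xbp1 and Pdia4, had an unadjusted p under 0.05 against 26.7% of all genes. The ratio of the highest to the lowest regional mean was 1.07 for Hspa5, 1.23 for Calr, 1.25 for Chac1, 1.27 for Sdf2l1, 1.30 for Xbp1 and 1.33 for Pdia4. It was 1.37 for Atf4, 1.41 for Ddit3 and 1.44 for Herpud1. The mRNA of BiP was thus nearly the same in the 4 regions, with regional means of 269 to 287 CPM.

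Xbp1 was highest in the DG, at 52.6 ± 6.85 CPM, followed by the CA at 51.8 ± 5.21, the NAc at 43.1 ± 2.91 and the SVZ at 40.3 ± 3.86 CPM (SD, n = 4). The F-test gave an FDR of 0.0635. DESeq2 called Xbp1, as it did 9.6% of all genes (1489 of 15515), so that 1 of 9 members was near the share of all genes. The SVZ was below the CA by a log2 difference of -0.36 (SE 0.11, FDR 0.0390) and below the DG by -0.39 (SE 0.11, FDR 0.110). Neighbours in this order did not differ beyond the call rule of FDR under 0.01 and 2-fold.

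Pdia4 kept the order of the DG, CA and NAc but was highest in the SVZ, with 50.7 ± 2.78 CPM in the SVZ, 44.1 ± 4.83 in the DG, 40.0 ± 3.88 in the CA and 38.2 ± 4.78 CPM in the NAc (SD, n = 4). The lowest SVZ library, at 47.4 CPM, was above every NAc and CA Sal library. The SVZ was above the CA by 0.34 (SE 0.11, FDR 0.0493) and above the NAc by 0.41 (SE 0.11, FDR 0.140) on the log2 scale, and the F-test gave an FDR of 0.0789. The SVZ thus had the lowest regional mean of Xbp1 and the highest of Pdia4. All 8 SVZ libraries, and no other, came from 1 folder named in the file headers, so in each difference between the SVZ and another region, those of Xbp1, Pdia4, Herpud1 and Calr included, region and folder cannot be told apart.

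Over the 6 pairs of regions, 0 of 54 differences of a member were called, beside 0.812% of all genes between the SVZ and CA, 0.0193% between the SVZ and DG and 0% in the other pairs. At an FDR under 0.05 without a fold threshold stood 2 of 9 members between the SVZ and CA, beside 13.2% of all genes. Of the 54 differences, 11 had an unadjusted p under 0.05. Of these, 3 of 9 members were between the SVZ and CA (31.6% of all genes), 3 between the SVZ and NAc (12.6%), 2 between the CA and NAc (24.1%), 2 between the DG and NAc (11.5%), 1 between the SVZ and DG (17.6%) and 0 between the CA and DG (8.93%). With 9 members, these counts are small, and no share was tested against that of all genes. Besides Xbp1 and Pdia4, they were Calr, which was lower in the NAc than in each other region by 0.26 to 0.30, and Herpud1, which was higher in the SVZ than in the CA by 0.52 (SE 0.22) and in the NAc by 0.46 (SE 0.22) on the log2 scale. The Herpud1 differences rested on SVZ Sal 1, at 86.1 CPM, without which they were 0.19 (FDR 0.364) and 0.13 (FDR 0.794). Without DG Sal 1 and 2, the F-test gave Pdia4 an FDR of 0.0654 and Xbp1 an FDR of 0.0900.

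Beyond the 10 members, 99 further genes of the response were followed in 4 lists, of which 92 were tested in the NAc, DG and SVZ and 91 in the CA. None was called in any region by edgeR. At an unadjusted p under 0.05 stood 4 of 92 in the NAc, all with METH above Sal, beside 3.39% of all genes. In the DG 10 of 92 did, 7 above and 3 below, beside 12.8%. In the CA 6 of 91 did, 3 above and 3 below, beside 7.16%, and in the SVZ 1 of 92, above, beside 2.58%. Medians of the log2 fold changes of the further genes were 0.05, 0.03, -0.02 and 0.08 in the NAc, DG, CA and SVZ. Over all genes they were 0.03, -0.01, 0.01 and 0.02. The shares of all genes given here also stand beside the counts of each list below.

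Among the 20 tested sensors and regulators of translation, Dnajc3, an inhibitor of PERK, was at 0.20 (SE 0.09, FDR 0.999) in the NAc. Mbtps2, the protease that makes the second cut of ATF6, was at 0.33 (SE 0.12, FDR 0.309) in the DG, and Ppp1r15a, the phosphatase subunit GADD34 that restores translation, at -0.30 (SE 0.13, FDR 0.381). Nfe2l2, a factor of the oxidative stress response, was at 0.26 (SE 0.09, FDR 0.669) in the CA and 0.28 (SE 0.12, FDR 0.979) in the SVZ. The median of this list was 0.11, 0.07, 0.01 and 0.06 in the NAc, DG, CA and SVZ.

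The 23 other chaperones and folding factors had 2 genes at this p in each of the NAc and DG, and 0 in the CA and SVZ. Ppib, a prolyl isomerase of the ER, was at 0.28 (SE 0.09, FDR 0.999) in the NAc and at 0.37 (SE 0.11, FDR 0.246) in the DG, where Fkbp2, another prolyl isomerase, was at -0.57 (SE 0.17, FDR 0.251). In the SVZ 20 of the 23 were above 0 (52.9% of all genes), their median was 0.13, and none was called.

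Of 24 tested genes of degradation and translocation, 0 stood at this p in the NAc and SVZ, 2 in the DG and 3 in the CA. Derl1, a channel component for misfolded proteins, was at 0.44 (SE 0.11, FDR 0.206) in the DG. Ufd1, which helps to extract them, was at -0.32 (SE 0.08, FDR 0.669) in the CA, where all 3 were below 0.

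The list of ATF4 and CHOP targets had 1 of 25 genes at this p in the NAc, 4 of 25 in the DG, 2 of 24 in the CA and 0 of 25 in the SVZ. Atf5, a relative of Atf4 induced by stress, was at 0.54 (SE 0.16, FDR 0.999) in the NAc. Slc7a11, the cystine transporter, was at 0.70 (SE 0.16, FDR 0.181) in the DG, where Vegfa, a growth factor of vessels, was at -0.34 (SE 0.15, FDR 0.390), and Slc7a5, a transporter of large amino acids, was at 0.30 (SE 0.10, FDR 0.669) in the CA. In the DG, the value of Slc7a11 was above 0 while that of Chac1, on the same branch, was below 0.

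**Figure D4:**
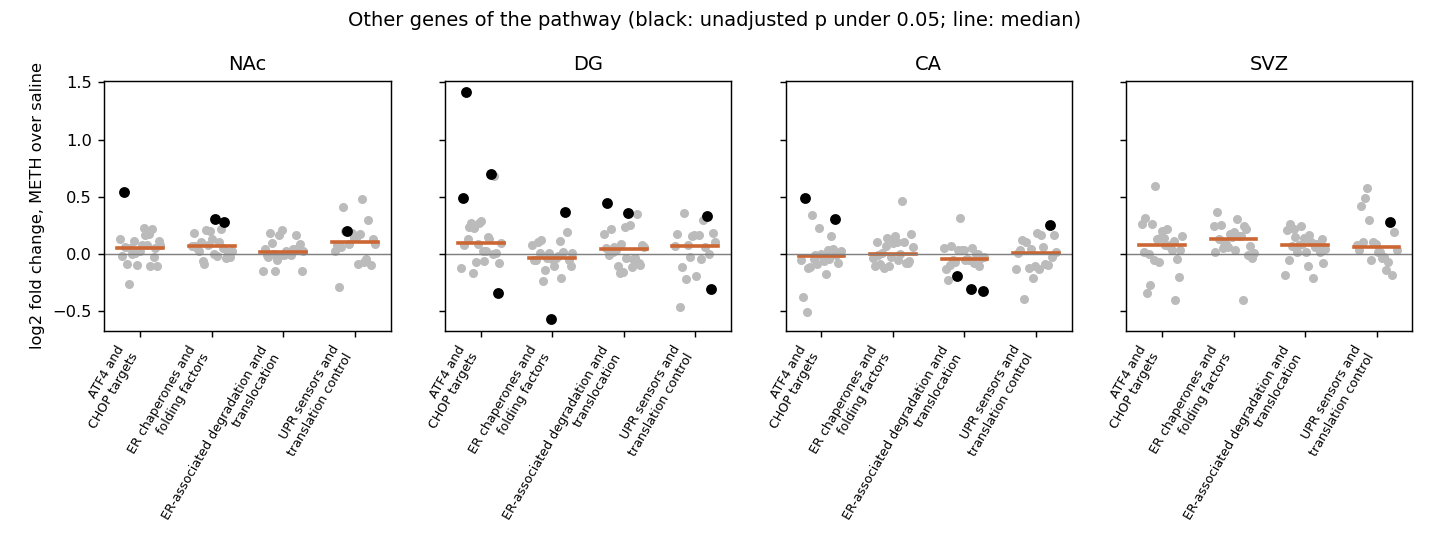
Log2 fold change of METH over Sal (vertical axis) of each other gene of the response, in 4 lists per region, with the median of each list as a line. Black points have an unadjusted p under 0.05, 10 of them in the DG (12.8% of all genes) and 1 in the SVZ (2.58%). None of the genes was called.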

How the data were processed

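RNA-seq libraries of total RNA, after removal of ribosomal RNA, were sequenced, 4 METH and 4 Sal in each of 4 regions. Per the labels and the file headers, the authors trimmed reads with cutadapt 2.7, checked them with FastQC 0.11.4, mapped them to rn6 with STAR 2.5.2b and counted paired fragments with mapping quality of at least 10 by gene name with featureCounts 1.6.3, without strand, on the Ensembl release 95 annotation. The deposited values are raw read counts per gene. A deposited count matrix of the whole series was not used.

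Normalization by the upper quartile, the filterByExpr filter and the quasi-likelihood test over all genes used edgeR 4.0.16 (limma 3.58.1, R 4.3.3), and p-values were adjusted to an FDR after Benjamini and Hochberg. DESeq2 1.42.0 served as an alternative, and Python 3.11.15 for figures. A METH effect was called at an FDR under 0.01 and above 1.5-fold, and a pair of regions at an FDR under 0.01 and above 2-fold. The tests were run on simulated counts with the same dispersion for all genes and with changes larger than most estimates of the members. Their power at the sizes estimated for the members was not simulated. The labels do not state that libraries of a group came from separate rats, so p-values measure the spread between these libraries. Deviations of METH and Sal libraries with the same replicate number had correlations of either sign, from -0.771 to 0.397, so replicate numbers were not used as pairs. Replicates of a group differed by more than counting noise (chi-square per gene of 12.3 or more).

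The members and lists were chosen with earlier results of these data known. Named besides the members are, in each list and region, the gene with the lowest p above and below 0 where p was under 0.05, and the 5 genes most like Hspa5 and the members' mean. The summed SVZ libraries, DG replicates 3 and 4 alone, leaving out DG replicates 1 and 2 elsewhere and a factor for a word in some headers were chosen after seeing the data. Alternatives were TMM, DESeq2, a likelihood ratio test, other filters and thresholds, 1 fit of 32 samples, RUVr factors, the RNA integrity number, the folder name in the headers, a replicate block and leaving out each library. A folder that holds 1 treatment or 1 region only cannot be told apart from it.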

Additional observations from a re-analysis of the deposited data

Results flagged for a closer look

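In groups of 4 libraries, a member's level was marked where its highest or lowest library lay far from the nearest other by Dixon's ratio at its 95% critical value for 4 samples. Of 72 groups tested 6 were marked, and chance marks about 1 in 20. Pdia4 was at 51.7 CPM in DG METH 3, with the other DG METH libraries at 34.7 to 35.2 CPM, and at 51.9 CPM in CA METH 1, with the others at 38.5 to 39.3 CPM. Herpud1 was at 66.2 CPM in DG METH 3, with the others at 37.4 to 40.1 CPM, and at 37.1 CPM in CA METH 2, with the others at 38.3 to 38.5 CPM, a gap of little size. Ddit3 was at 9.79 CPM in SVZ METH 1, with the others at 17.1 to 18.5 CPM. Chac1 was at 8.28 CPM in CA Sal 2, with the others at 7.70 to 7.74 CPM. DG METH 3 accounted for 2 of the 6, and its choroid plexus sum is given in the text above.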

How the results depend on the processing

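No member was called in a METH comparison under any alternative. Under these alternatives 774 values of single members were compared, among them test statistics over regions, which have no sign to change. Of the 774 values, 749 kept their side of the threshold and any sign they had, 22 changed sign and 3 came to pass the threshold. The 3 were Xbp1 among Sal regions by DESeq2 (1 member called, where edgeR called 0; over all genes DESeq2 called 1489, edgeR 0 and edgeR with RUVr factors 1143 of 15515) and Pdia4 (0.34) and Xbp1 (-0.36) between the SVZ and CA at an FDR under 0.05. The signs that changed were mostly of estimates near 0, with the exceptions of Sdf2l1 (0.24) and Atf4 (-0.20) in the DG. Hspa5 in the NAc was -0.022 with TMM, -0.021 by DESeq2, -0.011 without a filter, -0.0056 with the replicate block, -0.0042 with RUVr factors, -0.0026 in 1 fit of 32 samples and -0.085 with the folder as a factor, where Chac1 was -0.060. In the DG the folder as a factor gave Hspa5 -0.19, Sdf2l1 -0.29, Herpud1 -0.16, Xbp1 0.13 and Atf4 0.12. Herpud1 there was -0.0013 by DESeq2, -0.0086 without a filter, -0.030 with the replicate block, -0.023 with the RNA integrity number and -0.024 with RUVr factors. With that number Xbp1 was 0.0029 and Ddit3 -0.040, and Ddit3 was -0.056 from replicates 3 and 4 alone and -0.0094 in the average without DG replicates 1 and 2. The cause was not tested. With the replicate block 0 members were called in any comparison, and Chac1 in the DG was -0.64 (edgeR FDR 0.225). The numbers did not pair METH with Sal libraries.

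Leaving out 1 library at a time changed the sign of 31 of 1184 values. The 1184 include F statistics of the tests over regions, which have no sign. The share of estimates that changed sign is therefore higher than these counts give. In the NAc, Hspa5 ranged from -0.14 to 0.078, Herpud1 from -0.0071 to 0.26 and Chac1 from -0.10 to 0.21. In the DG, Hspa5 ranged from -0.072 to 0.13, Sdf2l1 from -0.15 to 0.43, Herpud1 from -0.23 to 0.089, Xbp1 from -0.12 to 0.0068 and Ddit3 from -0.045 to 0.16. In the CA, Hspa5 ranged from -0.051 to 0.061, Pdia4 from -0.036 to 0.15, Herpud1 from -0.014 to 0.073, Atf4 from -0.14 to 0.023 and Chac1 from -0.10 to 0.13. Ddit3 ranged from -0.0037 to 0.51 in the SVZ and from -0.027 to 0.10 in the average, and Atf4 from -0.0021 to 0.15 in the average. The folder as a factor was not run in the SVZ, which has 1 folder. Levels of Trib3, at 14 reads or fewer per library, were limited by depth.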
